A study of Mus musculus with 32 samples.

Results

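The genes described here are the clustered Zfp genes of the mouse, which encode zinc finger proteins and lie next to one another along the chromosomes. They were chosen as autosomal RefSeq protein-coding genes whose symbol starts with Zfp and that had at least 2 other Zfp genes with starts within 200 kb of their own start, the start being the lower coordinate in the gene table. This rule used no measured value and found 191 genes of 391 autosomal Zfp genes and of 20665 autosomal protein-coding genes in all. The other 200 Zfp genes are called solitary below.

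H3K9me3, trimethylation of lysine 9 of histone H3, was mapped by ChIP-seq in male germ cells from testes of mice carrying Mvh-Venus, a transgene with a fluorescent reporter for germ cells. The ages were E13.5 and E16.5, counted in days of embryonic life, and P0 and P3, counted in days after birth. For each age 1 group was Morc1 (+/-), called het, and 1 was Morc1 (-/-), called KO, so that no group was wild type and every group carried the reporter. Each of these 8 groups had 2 samples labelled H3K9me3 and was represented by 1 deposited peak list, with no replicate lists. Differences between lists therefore have no replicate error and no test, read depth is unknown, and every value below describes these lists. The 16 samples labelled H3 had no list that was used here. Whether samples of a group came from separate animals is not stated in the labels.

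Many Zfp genes encode KRAB zinc finger proteins. In these proteins an array of zinc fingers, as a rule encoded by a single long last exon, binds DNA, often within retrotransposons, and the KRAB domain recruits Trim28 and with it the H3K9 methyltransferase Setdb1. H3K9me3 is a mark of heterochromatin, and in many mammalian cell types it is found over zinc finger gene clusters themselves, above all over the exons that encode the fingers. Male germ cells pass through genome-wide loss and regain of DNA methylation around these stages, and Morc1, a germ cell ATPase of the MORC family, is known for silencing retrotransposons in them.

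The lists held between 50191 (E13.5 het) and 89020 (P0 KO) autosomal peaks, which covered between 159.7 Mb and 324.0 Mb. In what follows, 4 values in a row stand in the order E13.5, E16.5, P0, P3. The targeted gene, Morc1, had 2.002, 1.62, 3.47 and 3.21 kb of its body in het peaks and 1.56, 0, 0 and 1.00 kb in KO peaks. The lists carry no expression value, so neither the knockout nor the germ cell identity could be checked against marker transcripts.

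The 191 genes fell into 30 clusters on 14 chromosomes when members with starts within 200 kb of each other were chained. Chromosome 7 held 10 clusters with 69 members, chromosome 17 held 33 members and chromosome 13 held 23 members in 1 cluster. Gene bodies of members had a median length of 16.0 kb, against 17.5 kb over all autosomal protein-coding genes, and 17 members overlapped another member, so that their covered bases were counted more than once. At the edge of the rule, the second nearest Zfp gene started 184.4 kb from Zfp937, 188.1 kb from Zfp629 and 197.2 kb from Zfp781, which were members. It started 202.8 kb from Zfp428, 252.9 kb from Zfp345 and 254.0 kb from Zfp668, which were not. Of these 6 genes, only Zfp629 (2.41 kb in the E13.5 het list, 0.076 kb in the matching KO list, 1.24 kb in P3 het) and Zfp428 (1.181 kb in P3 KO) had any gene body in a peak.

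The first question was how much of the clustered Zfp genes lay in called H3K9me3 in germ cells of each stage. A gene was counted as called when at least 1 bp of its body lay in a peak. Called members numbered 82 in the E13.5 het list, 73 in E13.5 KO, 70 in E16.5 het, 69 in E16.5 KO, 75 in P0 het, 67 in P0 KO, 80 in P3 het and 80 in P3 KO. Over all 20665 genes the called shares in the same order were 30.7%, 34.2%, 33%, 32.1%, 35%, 40.1%, 39% and 41.7%. The members' shares ran from 35.1% (95% Wilson interval 28.7% to 42.1%, P0 KO) to 42.9% (36.1% to 50.02%, E13.5 het). The interval of E13.5 het lay above the share over all genes. In the other 7 lists the interval contained the share over all genes, so the count of called members was near the background there. Fewer than 50% of members and of all genes were called in every list, so the median covered length was 0 in both. The interval covers counting error only and treats genes as independent, which neighbours in a cluster are not.

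By length rather than by gene, peaks covered 6.37% of the pooled member bodies in E13.5 het and 6.44% in E13.5 KO, against 3.41% and 3.99% over all genes. In the P3 lists the members stood at 7.22% (het) and 7.31% (KO), and all genes at 6.61% and 7.87%. At E16.5 the members stood at 6.59% (het) and 6.46% (KO) and all genes at 5.68% and 5.20%, and at P0 the members stood at 6.69% and 6.3996% and all genes at 6.12% and 7.32%. The pooled value of the members stayed within 6.37% and 7.31%, whereas that of all genes ran from 3.41% to 7.87%. Solitary Zfp genes ran from 3.43% in E13.5 het to 6.45% in P3 KO. By this pooled value the members lay above all genes in both embryonic stages and in the postnatal het lists, with the widest distance at E13.5. With every gene model counted, they lay below all genes in the KO lists of P0 and P3. The pooled bodies include the long peak-free gene models of Zfp993 (478.6 kb) and Zfp978 (267.1 kb), which overlap other members. Without these models the members' shares would be higher. With both left out, the members' pooled value would lie above that of all genes in the KO lists of P0 and P3 as well. The lower place of the members in those lists therefore rests on these gene models.

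Coverage was unequal among members. In 68 of the 191 genes (35.6%) no list had a peak in the gene body, against 43.9% of all genes, and 39 (20.4%) were called in all 8 lists, against 19.9% of all genes. The 39 lay in 16 of the 30 clusters, and their covered share of the gene body, averaged over the 8 lists, ran from 2.60% to 78.4% with a median of 20.8%. Of the 12 members on chromosome 4, 11 had no peak in any list. On chromosome 17, 12 of 33 members were called in all 8 lists and 10 of 33 in none.

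The highest mean covered share belonged to Zfp758 (chr17:22361430-22393909, plus strand, 32.5 kb). Its covered length was 27.6, 25.2, 24.1 and 24.3 kb in the het lists and 27.9, 25.7, 24.5 and 24.4 kb in the KO lists. Het and KO lists lay within 0.41 kb of each other at every stage. Zfp873 (chr10:82048084-82077727, plus strand, 29.6 kb) came next with a mean of 68.3%. It had 23.1, 20.2, 20.3 and 16.9 kb in het and 23.6, 20.7, 18.9 and 18.3 kb in KO. Both genotypes were lower at P3 than at E13.5. In 4 lists (E13.5 het and KO, E16.5 KO and P3 KO) the longest peak inside any Zfp cluster lay in Zfp873, with 23.1 kb in E13.5 het (chr10:82049035-82072133).

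Zfp119a (chr17:55864886-55879457, minus strand, 14.6 kb) had a mean of 56.6%. In both P0 lists the longest cluster peak reached from Adgre4, an adhesion G protein-coupled receptor gene, into Zfp119a, with 28.3 kb in P0 KO (chr17:55840665-55869004) and 27.6 kb in P0 het. Zfp445 (chr9:122848910-122886851, minus strand, 37.9 kb), whose product is known to maintain imprinted DNA methylation, had a mean of 48.3%. Its het values were 19.7, 21.5, 12.9 and 19.6 kb, and its KO values were 19.6, 18.3, 18.2 and 16.6 kb. The P0 het list was the lowest of the 8 and the E16.5 het list the highest. Zfp964 (chr8:69654463-69667132, plus strand, 12.7 kb) had a mean of 48.2%, with 2.89, 6.19, 6.28 and 9.01 kb in het and 2.93, 6.79, 5.71 and 9.04 kb in KO, so that its coverage was larger at P3 than at E13.5 in both genotypes.

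At the other end, the longest genes with no peak in any list were all on chromosome 4. They were Zfp993 (chr4:146512849-146991471, 478.6 kb), Zfp978 (267.1 kb), Zfp982 (73.0 kb), Zfp984 (58.3 kb) and Zfp991 (48.5 kb). Zfp993 is a long gene model that overlaps Zfp981 and Rex2, and Zfp978 overlaps Zfp991. The cluster that holds Zfp993, from Zfp992 to Zfp993 over 542.4 kb, had no base in a peak in any of the 8 lists, as had the cluster from Zfp251 to Zfp647 on chromosome 15 (73.6 kb). The lists do not show where reads could be aligned, so a gene or cluster without a peak cannot be called unmarked.

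Across the 30 cluster intervals, from the first base of the first member to the last base of the last, peaks covered between 7.14% (E13.5 het) and 11.1% (P0 het) of 8473 kb. The highest mean over the 8 lists was in the cluster from Zfp119a to Zfp119b on chromosome 17, with 20.7% in E13.5 het and 34.1% in E16.5 het as the lowest and highest values. The next were the cluster from Zfp445 to Zfp105 on chromosome 9, with a mean of 21.7%, and that from Zfp607b to Zfp850 on chromosome 7, with a mean of 19.0%. The 2 clusters without a peak were followed by that from Zfp972 to Zfp931 on chromosome 2, with a mean of 0.41%. Among the clusters with most members, the 23 members from Zfp712 to Zfp273 on chromosome 13 had a mean of 9.02% and the 18 members from Zfp677 to Zfp946 on chromosome 17 had 13.8%. The clusters from Zfp84 to Zfp146 (15 members) and from Zfp180 to Zfp94 (10 members), both on chromosome 7, had means of 12.7% and 14.3%, and that from Zfp871 to Zfp101 on chromosome 17 (12 members) had 11.5%.

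**Figure D1:**
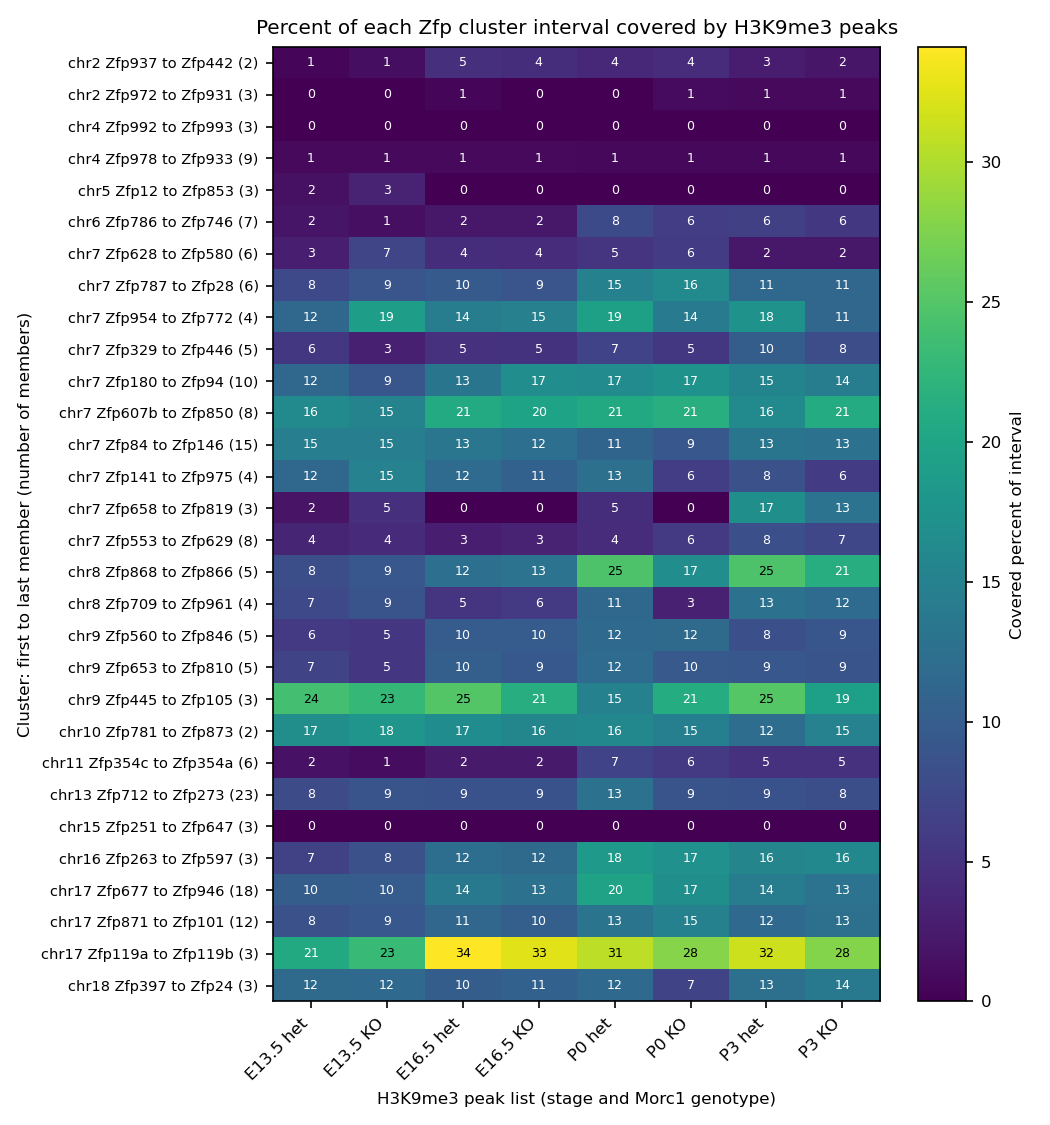
Percent of each of the 30 Zfp cluster intervals covered by H3K9me3 peaks (colour and printed whole percent) in each of the 8 lists (columns), with clusters in chromosome order and the number of members in brackets. The cluster from Zfp119a to Zfp119b on chromosome 17 was the most covered and those from Zfp992 to Zfp993 and from Zfp251 to Zfp647 had no covered base.

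The next question was where along the genes the peaks lay. For 169 of the 191 members the RefSeq promoter table gave a strand and a start. The gene body was divided into 10 equal segments in the direction of transcription, and bases were pooled over members. In every list the first segment was the least covered and coverage was several times higher in the last segment. In E13.5 het it was 1.82% in the first segment and 12.3% in the last, and in E13.5 KO it was 2.24% and 10.6%. In P3 het it was 0.78% and 15.0%, and in P3 KO 0.83% and 13.3%. Over all genes with a strand the P3 het values were 4.83% and 7.13%, and the E13.5 het values 2.92% and 3.44%. In the 158 solitary Zfp genes with a strand, the P3 het values were 2.24% and 8.13%, and the E13.5 het values 1.77% and 4.44%. A rise from the first to the last segment was thus not particular to the clustered genes, though their last segment was more covered. With each member weighted equally, the last segment exceeded the first by between 8.90 points (P0 KO) and 15.6 points (P3 het). The 5 kb downstream of members reached 17.8% in P0 het, against 8.63% for all genes, and 13.4% in P0 KO, against 9.14%.

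**Figure D2:**
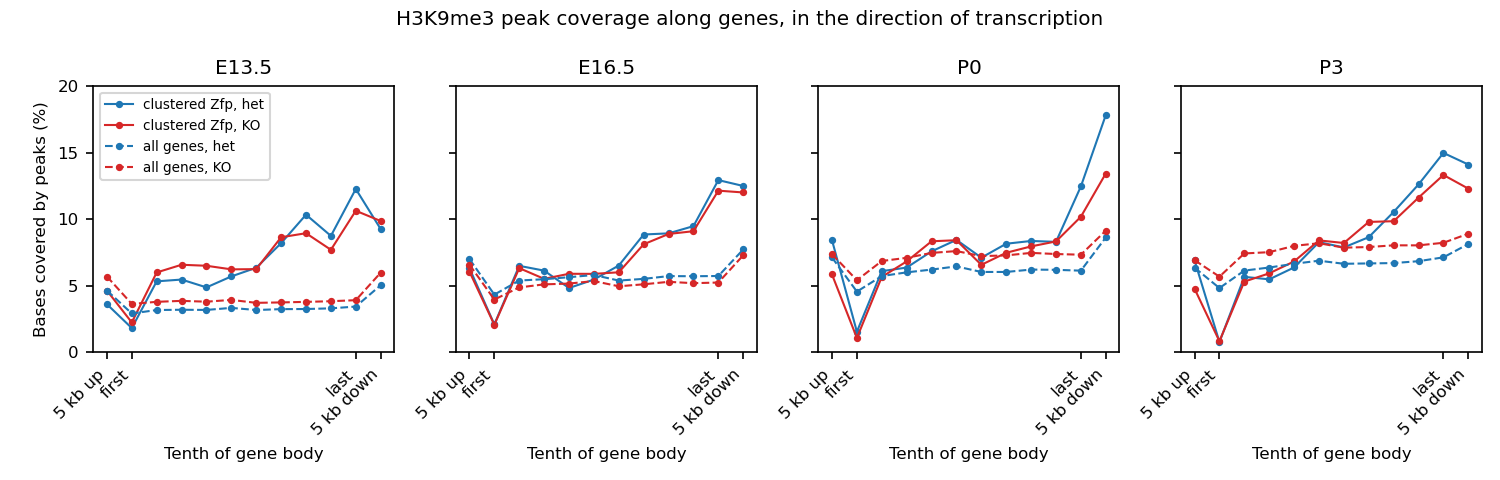
Percent of bases covered by H3K9me3 peaks in the 5 kb upstream, each of 10 equal segments of the gene body and the 5 kb downstream, in the direction of transcription, at each stage, for the 169 clustered Zfp genes with a known strand (solid lines) and all genes with a known strand (dashed lines), in het (blue) and KO (red). Members were lowest in the first segment and highest in the last segment or the 5 kb after it.

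Transcription starts of members were seldom in a peak. Of the 169 starts, 3 lay in a peak in E13.5 het, 1 in E13.5 KO, 2 in E16.5 het, 1 in E16.5 KO, 2 in P0 het, 1 in P0 KO and none in either P3 list. Over 16457 genes the shares were 4.33%, 5.81%, 4.84%, 4.53%, 4.99%, 5.6%, 4.53% and 5.21% in the same order of lists. Over 158 solitary Zfp genes they ran from 1.90% (E16.5 het) to 3.80% (E13.5 KO) and were likewise below all genes in every list. The starts in a peak were those of Zfp180 in all 4 embryonic lists, of Zfp119b in both P0 lists, and of Zfp418, Zfp677, Zfp760 and Zfp853 in 1 list each. No member start was in a peak in all 8 lists, and none differed between het and KO at both P0 and P3.

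RefSeq promoters (GRCm38.p6) of 4 members are shown because they contrast a start that lay in a peak, in Zfp180, with peak-free starts in front of the most covered gene bodies, Zfp758 and Zfp873, and of the gene with the largest repeated excess in het, Zfp457. These 4 were chosen after their values had been seen, and the one of Zfp873 belongs to 1 of its 2 listed starts. Each runs 5′ to 3′ on the gene's strand from 250 bases before to 50 bases after the start, and capitals mark CG dinucleotides, which read the same on both strands. They lie at chr7:24081647-24081946 (plus strand, Zfp180), chr17:22361213-22361512 (plus strand, Zfp758), chr10:82047873-82048172 (plus strand, Zfp873) and chr13:67306363-67306662 (minus strand, Zfp457).
Zfp180: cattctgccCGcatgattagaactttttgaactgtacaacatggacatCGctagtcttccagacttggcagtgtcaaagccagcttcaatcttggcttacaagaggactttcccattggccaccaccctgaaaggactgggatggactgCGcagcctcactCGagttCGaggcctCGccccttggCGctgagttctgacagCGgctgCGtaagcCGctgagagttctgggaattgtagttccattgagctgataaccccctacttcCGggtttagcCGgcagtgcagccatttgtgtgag
Zfp758: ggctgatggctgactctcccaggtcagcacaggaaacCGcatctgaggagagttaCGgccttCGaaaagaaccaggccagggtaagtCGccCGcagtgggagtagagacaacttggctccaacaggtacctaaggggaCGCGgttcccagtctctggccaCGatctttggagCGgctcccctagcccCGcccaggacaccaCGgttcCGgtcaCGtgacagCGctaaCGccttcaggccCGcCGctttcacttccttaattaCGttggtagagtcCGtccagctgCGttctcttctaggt
Zfp873: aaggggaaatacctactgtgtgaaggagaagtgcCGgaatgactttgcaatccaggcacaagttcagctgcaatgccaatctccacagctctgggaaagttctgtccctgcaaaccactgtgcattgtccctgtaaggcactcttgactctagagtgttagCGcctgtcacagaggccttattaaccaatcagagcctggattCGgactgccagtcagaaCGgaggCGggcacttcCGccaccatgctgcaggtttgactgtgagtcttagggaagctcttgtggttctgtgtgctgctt
Zfp457: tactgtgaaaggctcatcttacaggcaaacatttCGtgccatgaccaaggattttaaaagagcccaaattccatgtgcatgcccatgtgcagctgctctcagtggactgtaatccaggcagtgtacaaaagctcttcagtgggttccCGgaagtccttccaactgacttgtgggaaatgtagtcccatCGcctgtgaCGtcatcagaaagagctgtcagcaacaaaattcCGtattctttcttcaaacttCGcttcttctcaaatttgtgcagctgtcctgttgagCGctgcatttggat

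The Zfp180 window held 12 CG dinucleotides, that of Zfp758 held 20, that of Zfp873 held 6 and that of Zfp457 held 7. The number did not order them by whether the start was in a peak. Over the 169 members the median was 11 per 300-base window, and 65.1% of windows held 10 or more. Over all 16457 genes the median was 15 and 60.9% held 10 or more, and over solitary Zfp genes the median was 18.

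Het and KO lists were then compared within each stage to ask how called H3K9me3 at these genes differed with the loss of Morc1. A gene was counted when its covered length differed by at least 1 kb, about the length of the shortest peaks. In gene bodies the counts of members with more in het and with more in KO were close at each stage. At E13.5, 24 members had more in het and 19 more in KO, where the shares over all genes were 3.98% and 13.9%. At E16.5 the counts were 10 and 8, with 8.84% and 3.29% over all genes. At P0 they were 18 and 14, with 3.9% and 20.2%, and at P3 they were 23 and 26, with 5.68% and 19.4%. As shares of the 191 members, the counts with more in het were 12.6%, 5.24%, 9.42% and 12.0% from E13.5 to P3, and those with more in KO were 9.95%, 4.19%, 7.33% and 13.6%. The members' counts did not show the lean toward KO that all genes had in the E13.5 and both postnatal comparisons, nor that toward het of the E16.5 comparison. Solitary Zfp genes counted 13 in het and 37 in KO at E13.5, 12 and 9 at E16.5, 18 and 34 at P0, and 28 and 33 at P3. The 63 non-Zfp genes that reach into the clusters counted 6 and 3, 1 and 1, 3 and 3, and 2 and 4. The missing lean toward KO was thus seen in these few genes at E13.5 and P0 too.

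When 5 kb were added on each side of the gene, the members' counts leaned toward het after birth. At P0, 41 members had at least 1 kb more in het and 18 more in KO, with 7.13% and 25.2% over all genes. At P3 the counts were 41 and 26, with 8.47% and 23.9%. The P0 het list, with 82082 autosomal peaks, was shorter than the P0 KO list, with 89020, and the P3 het list, with 77632, was shorter than the P3 KO list, with 82590. The embryonic counts were 25 in het and 28 in KO at E13.5, with 5.16% and 18.7%, and 14 and 7 at E16.5, with 11.7% and 4.48%. Summed over members, the covered length with flanks was 535.1 kb (het) and 456.1 kb (KO) for the P0 lists and 515.4 and 484.7 kb for the P3 lists, where bases shared by neighbouring members' flanks count more than once. Solitary Zfp genes with flanks counted 29 in het and 35 in KO at P0, and 37 and 36 at P3. The flanks of neighbouring members can overlap, so these counts are not independent.

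**Figure D3:**
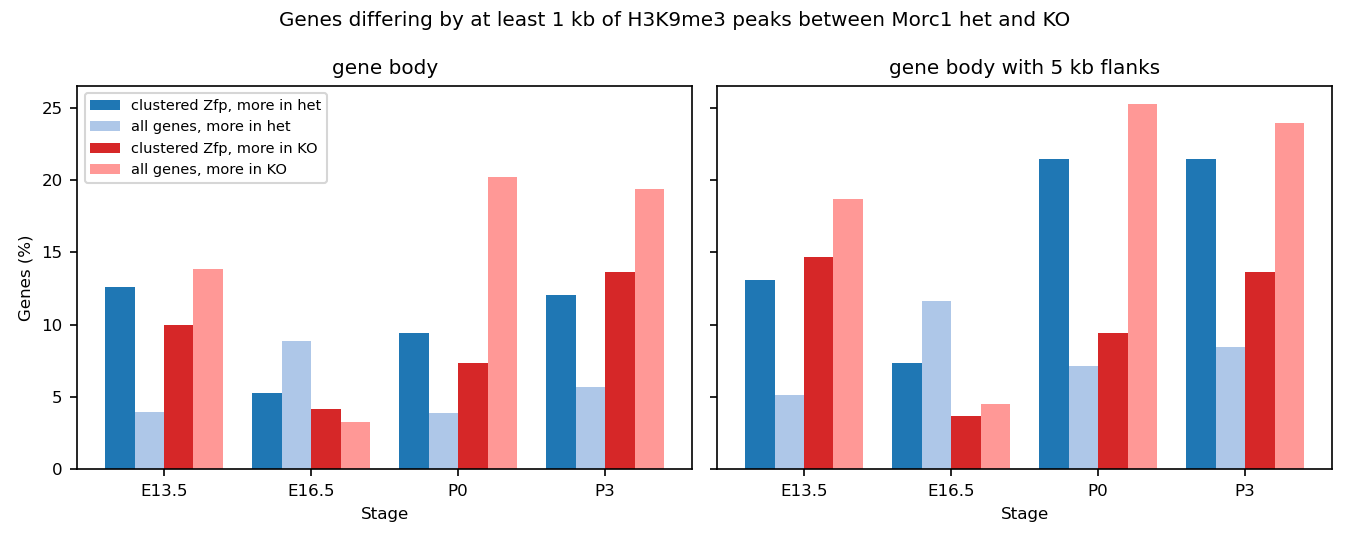
Percent of clustered Zfp genes (dark bars, n = 191) and of all autosomal protein-coding genes (pale bars, n = 20665) whose covered length differed by at least 1 kb, with more in het (blue) or more in KO (red), for gene bodies (left) and with 5 kb flanks (right) at each stage. With flanks, 21.5% of members had more in het at P0, against 7.13% of all genes.

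The excess in het after birth was on both sides of the genes. In the 5 kb upstream of the 169 members with a strand, 13 had at least 1 kb more in het at P0 and 2 more in KO, with 2.68% and 3.24% over 16457 genes. At P3 these counts were 15 and 2, with 2.19% and 3.23%. In the 5 kb downstream, 20 had more in het and 3 more in KO at P0, with 2.7% and 3.83%, and 12 and 6 at P3, with 2.63% and 4.22%. In summed length, the P0 peaks took 71.2 kb (het) and 49.4 kb (KO) of the upstream flanks. Downstream they took 150.5 and 113.5 kb. The solitary Zfp genes also had more in het upstream at P0, in 11 of 158 genes against 1 with more in KO. Downstream at P0 their counts were 10 in het and 4 in KO. At P3 they were 5 and 2 upstream and 9 and 9 downstream.

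Members that differed in the same direction at both P0 and P3 were looked at one by one, since the lists of these stages come from different samples. In gene bodies, 7 members had at least 1 kb more in het at both and 3 had more in KO at both, where the shares over all genes were 1.8% and 11.9%. Another 6 members changed direction between P0 and P3. The 7 were Zfp457, Zfp773, Zfp872, Zfp994, Zfp2, Zfp27 and Zfp442.

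The largest repeated difference was in Zfp457 (chr13:67288137-67306412, minus strand, 18.3 kb), in the cluster from Zfp712 to Zfp273. Its body had 0, 0, 10.2 and 7.08 kb in het peaks and 0, 1.00, 2.31 and 1.00 kb in KO peaks. Both postnatal het lists were thus above all 6 other lists. The P0 het list had a peak inside the gene at chr13:67295589-67301851 and a peak over the 3′ end at chr13:67285321-67292061, while P0 KO had 1.00 kb within the first and 3.83 kb within the second. No peak in any list reached the start of Zfp457, whose promoter is printed above.

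Zfp872 (chr9:22188166-22202123, plus strand, 14.0 kb) had 3.39, 3.11, 5.25 and 6.93 kb in het and 1.00, 4.98, 2.998 and 2.43 kb in KO. Het was higher in each comparison except that of E16.5. A second peak beyond its 3′ end was present in all 8 lists and ran to 9.56 kb in P3 KO (chr9:22204193-22213750). The difference between genotypes after birth was therefore in the peak within the gene.

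**Figure D4:**
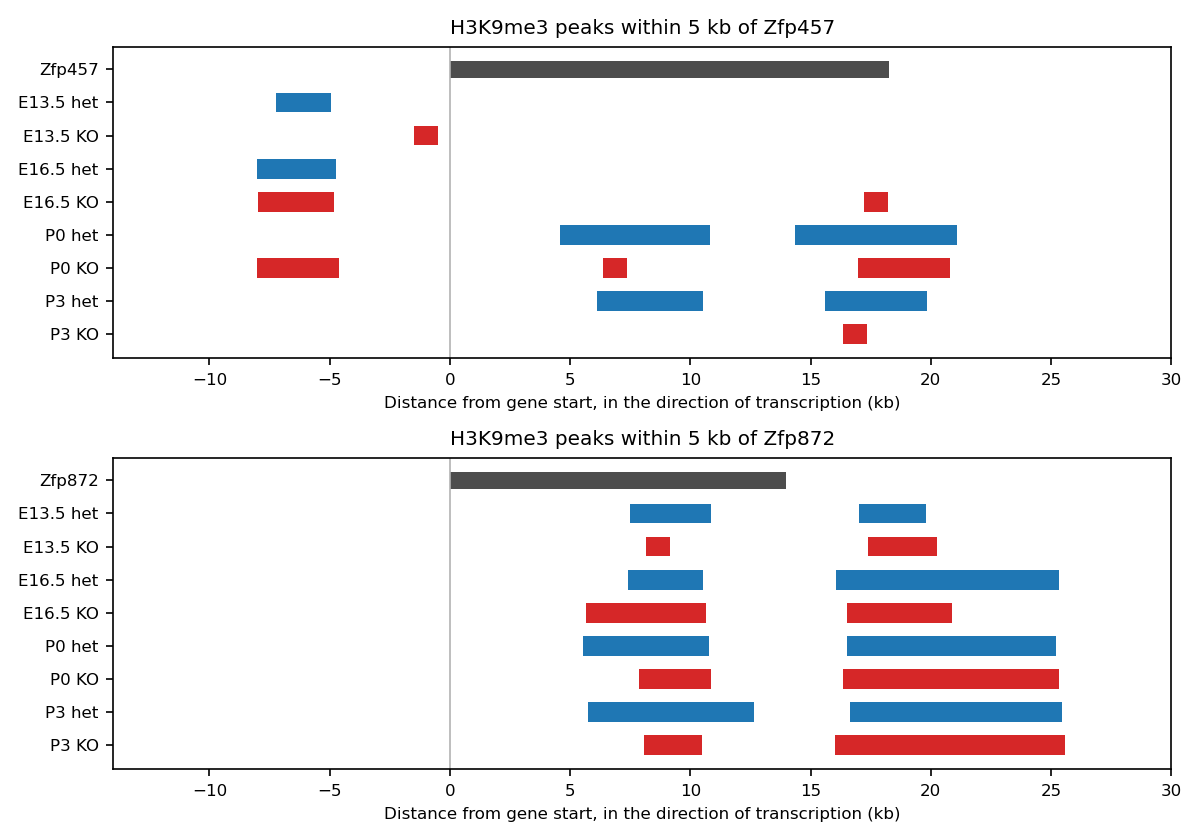
Position of H3K9me3 peaks in het (blue) and KO (red) lists around Zfp457 (top) and Zfp872 (bottom), drawn as distance in kb from the gene start in the direction of transcription, with the gene body in grey. Only peaks that reach within 5 kb of the gene are drawn, at full length; no peak crosses either start.

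Zfp773 (chr7:7130678-7136755, minus strand, 6.08 kb) had 1.28, 1.85, 2.301 and 2.29 kb in het and 1.91, 1.00, 0 and 0 kb in KO. The KO body was thus peak-free in the postnatal lists and not in the embryonic ones. Zfp994 (chr17:22197265-22225659, minus strand, 28.4 kb) had 0, 0, 3.65 and 1.97 kb in het and 0, 0, 0.805 and 0 kb in KO. Zfp2 (chr11:50897265-50916216, minus strand, 19.0 kb) had 1.00, 0, 1.99 and 1.82 kb in het and no covered base in any KO list. Zfp27 (13.2 kb, chromosome 7), chosen after its values were seen, had 6.20, 1.00, 2.26 and 2.99 kb in het and 6.505, 1.55, 0 and 1.64 kb in KO, and was most covered at E13.5 in both genotypes.

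More in KO at both stages was seen in Zfp759, Zfp607a and Zfp119a. Zfp759 (chr13:67121659-67142404, plus strand, 20.7 kb), in the same cluster as Zfp457, had 1.72, 7.54, 5.57 and 4.87 kb in het and 1.94, 7.29, 7.40 and 7.04 kb in KO. Its KO values lay between 7.04 and 7.40 kb from E16.5 on, while its het values were lower after birth than at E16.5. Zfp607a (chr7:27860494-27903063, plus strand, 42.6 kb) had 4.56, 5.16, 6.08 and 0 kb in het and 2.29, 3.89, 7.57 and 4.91 kb in KO. The KO length in the P3 list was a single peak, chr7:27888094-27893002, the longest KO peak without a het counterpart in any cluster at P3. In the embryonic comparisons Zfp607a had more in het. Zfp119a had more in KO at all 4 stages, with 6.57, 9.20, 6.72 and 7.12 kb in het and 8.96, 10.1, 7.98 and 9.30 kb in KO.

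**Figure D5:**
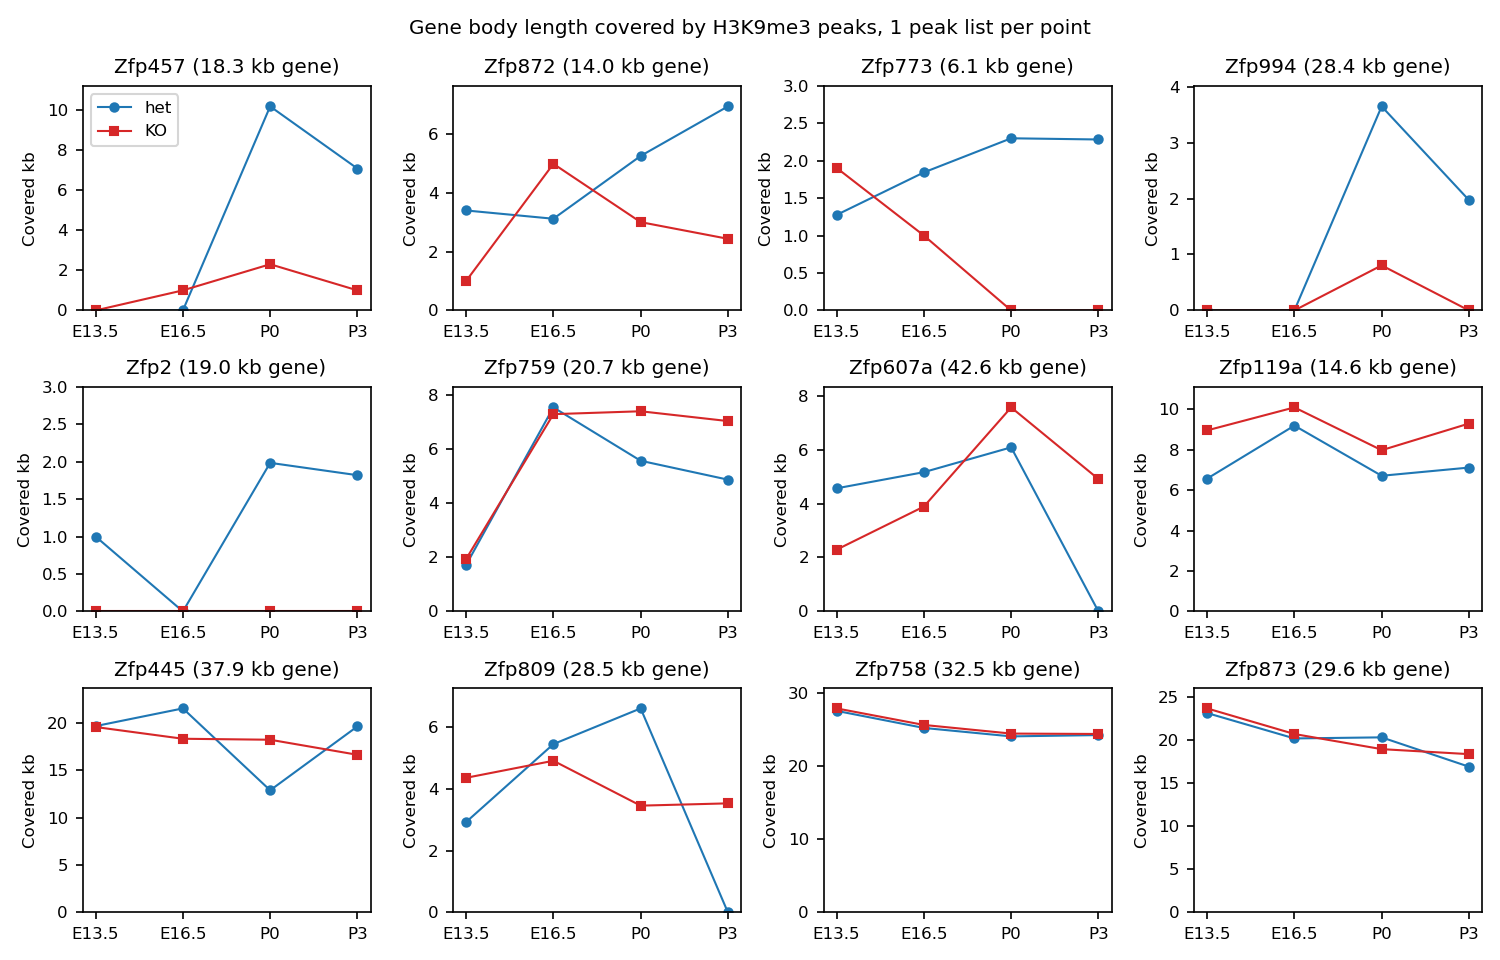
Length of gene body covered by H3K9me3 peaks (kb, linear axes from 0, scaled per gene) by stage in het (blue circles) and KO (red squares) for 12 members; each point is 1 list and has no error bar. Zfp457, Zfp872, Zfp773, Zfp994 and Zfp2 had more in het at P0 and P3, Zfp759, Zfp607a and Zfp119a more in KO, and Zfp758 and Zfp873 were covered over most of their length in both genotypes.

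At both E13.5 and E16.5, only 2 members had at least 1 kb more in het, Zfp943 and Zfp607a, and only 2 more in KO, Zfp24 and Zfp30. Zfp943 had 2.63, 5.37, 1.00 and 2.81 kb in het and 1.00, 2.28, 1.00 and 1.00 kb in KO. Zfp24 had 1.00, 0, 0 and 0 kb in het and 2.002, 1.00, 0 and 0 kb in KO. Zfp30 had no covered base in het and 2.33, 1.00, 0 and 0 kb in KO. The E16.5 KO value of Zfp24 and Zfp30, 1.00 kb each, is about the length of the shortest peaks.

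With 5 kb flanks, 18 members had at least 1 kb more in het at both P0 and P3 and 4 more in KO at both, where the shares over all genes were 3.21% and 14.2%. Another 6 changed direction. The 18 lay in 13 clusters. Because the 18 were chosen for less covered length in KO at P0 and P3, low KO values there follow partly from the choice. In 12 of the 18 no KO peak lay in the gene or its flanks at P0, and in 7 none at P3. In 10 neither genotype had a covered base there at E16.5. No matching counts were made over all genes. The 18 were Zfp2, Zfp27, Zfp74, Zfp442, Zfp457, Zfp472, Zfp553, Zfp719, Zfp738, Zfp771, Zfp773, Zfp869, Zfp872, Zfp882, Zfp952, Zfp954, Zfp959 and Zfp994, of which Zfp553 and Zfp771 share flank bases, as do Zfp954 and Zfp773. A single P3 het peak, chr7:7125461-7127002, reached the flanks of both Zfp954 and Zfp773 and held the 1.02 kb by which het exceeded KO in Zfp954 at P3. The 4 with more in KO were Zfp35, Zfp595, Zfp607a and Zfp689. Zfp882 on chromosome 8 had, with flanks, 0, 0, 4.38 and 2 kb in het and 0.53, 0, 0 and 0 kb in KO. Zfp869 on the same chromosome had 0, 0, 3.75 and 3.33 kb in het and 0, 0, 0 and 1.00 kb in KO. These lengths in het were thus seen in the postnatal lists. Zfp959 on chromosome 17 had 1.55, 6.49, 3.16 and 7.86 kb in het and 1.00, 4.58, 0 and 4.72 kb in KO, so that it was covered in both genotypes already at E16.5.

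The cluster intervals as a whole, which include the space between genes, were counted in 1 kb bins, and bins with 50% or more of their bases inside peaks were taken as called. Of 8474 bins, 222 at P0 were het-only and 122 KO-only, and 186 and 142 at P3. The het-only share of the bins called in 1 genotype was 64.5% at P0 (95% Wilson interval 59.3% to 69.4%) and 56.7% at P3 (51.3% to 62.0%), where the shares over all autosomes were 43.2% and 38.9%. At E13.5 it was 42.5% against 30.5%, and at E16.5 62.3% against 68.9%. The excess at P0 lay mostly between genes, where 158 bins were het-only and 68 KO-only. In member bodies 57 were het-only and 46 KO-only. Bins between genes were not counted over all autosomes, so whether this contrast was particular to the clusters was not tested. Intervals cover counting error only, and neighbouring bins are not independent.

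Part of these bins were in the same state at both postnatal stages. In the clusters, 63 bins were het-only at both P0 and P3 and 16 were KO-only at both, a het share of 79.7% (69.6% to 87.1%), against 54.3% over all autosomes, and 12 bins were in 1 genotype at both stages with opposite direction (7 het then KO, 5 KO then het). The 63 were 28.4% of the bins that were het-only at P0 and the 16 were 13.1% of those KO-only at P0, and over all autosomes these shares were higher, 38.6% and 24.7%. Of the 63, 42 (66.7%) had no call before birth in either genotype, against 57.3% over all autosomes. The cluster from Zfp712 to Zfp273 held 12 of the 63, those from Zfp84 to Zfp146 and from Zfp677 to Zfp946 held 7 each, and those from Zfp141 to Zfp975 and from Zfp868 to Zfp866 held 6 each. The cluster from Zfp871 to Zfp101 went the other way, with 1 bin het-only and 6 KO-only at both stages.

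By cluster, 16 of 30 had at least 1 kb more covered length in het at P0 and 8 more in KO, and at P3 the counts were 15 and 4. In the E13.5 lists 9 had more in het and 15 more in KO, and at E16.5 11 and 2. The same count was not made for intervals of like length elsewhere on the autosomes. A single peak of about the shortest length can reach this 1 kb difference, whatever the length of the interval. The largest P0 differences toward het were in the cluster from Zfp712 to Zfp273 (chr13:67038594-67827000), with 99.97 kb in het and 70.0 kb in KO, and in that from Zfp677 to Zfp946 (chr17:21383707-22456689), with 211.5 and 181.9 kb. At P3 these clusters had 67.25 and 64.1 kb, and 155.5 and 139.3 kb. The P0 difference in the chromosome 13 cluster was therefore far smaller at P3, 3.13 kb against 29.9 kb, and that of the chromosome 17 cluster went from 29.7 to 16.1 kb. Toward KO, the largest at P0 were the cluster from Zfp871 to Zfp101 (chr17:32765496-33394637), with 82.4 kb in het and 93.95 kb in KO, and that from Zfp553 to Zfp629 on chromosome 7, with 16.3 and 22.2 kb. At P3 the first again had more in KO, 73.6 against 78.9 kb, and the second more in het, 32.1 against 27.8 kb.

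Peaks in the clusters without any counterpart in the other genotype were counted next. At P0, 61 of 271 het peaks (22.5%) and 23 of 232 KO peaks (9.91%) had none, where the shares over all autosomes were 11.6% and 19.6%. At P3 these were 52 of 235 het peaks (22.1%) and 38 of 222 KO peaks (17.1%), against 13.7% and 20.6%. At E13.5 they were 41 of 211 (19.4%) and 38 of 203 (18.7%), against 11.4% and 21.5%. At E16.5 they were 19 of 207 (9.18%) and 16 of 208 (7.69%), against 13.6% and 6.72%. Among peaks of at least 3 kb, 7 het peaks (6.19%) and no KO peak in the clusters were unmatched at P0, where the shares over all autosomes were 5.84% and 1.27%. At P3 they were 6 het peaks (6.12%) and 3 KO peaks (3.30%), against 5.30% and 2.33%. At this length more het than KO peaks were thus unmatched over all autosomes too, and the het shares in the clusters were near those values. When the 50191 longest peaks of every list were used, 44 het and 10 KO peaks in the clusters were unmatched at P0, and over all autosomes 15.4% of het and 16.4% of KO peaks were.

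The longest unmatched het peak at P0 lay between Zfp869 and Zfp963 at chr8:69718321-69724200, 5.88 kb. In that interval P3 het had 4.33 kb and the other 6 lists had none. The longest unmatched het peak at P3 lay between Zfp329 and Zfp110 at chr7:12822432-12827020, 4.59 kb. There P0 het had 2.85 kb and P0 KO 1.00 kb, and the 4 embryonic lists and P3 KO had none. The longest unmatched KO peak at P0 was shorter, 2.24 kb between Zfp799 and Zfp870 at chr17:32839474-32841717.

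Consecutive stages of the same genotype were compared to ask how coverage of members changed with age. In het, 26 members had at least 1 kb more at E16.5 than at E13.5 and 30 at least 1 kb less, where the shares over all genes were 19.5% and 7.51%. From E16.5 to P0 the counts in het were 30 and 26, with 15.5% and 10.5%, and from P0 to P3 34 and 25, with 18.4% and 9.23%. In KO, 31 members had more and 31 less from E13.5 to E16.5, with 15.7% and 11.9%. From E16.5 to P0 the KO counts were 26 and 29, with 25% and 5.03%, and from P0 to P3 39 and 23, with 18.3% and 10.7%. The members' gains and losses differed by at most 4 genes in each genotype over the first steps, where all genes gained more often than they lost. From P0 to P3 gains outnumbered losses in members as in all genes. Each of these comparisons shares a list with its neighbour.

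Of 14 Zfp genes listed for their known roles or for interest in retrotransposon control, 7 were members. Zfp809, which binds the primer binding site of murine leukaemia virus proviruses and recruits Trim28, had 2.92, 5.45, 6.60 and 0 kb in het and 4.36, 4.91, 3.45 and 3.53 kb in KO. Its het values held both the highest and the lowest of the 8. Zfp568, which represses a placental transcript of Igf2, was called in all 8 lists, between 2.46 kb (P0 KO) and 4.50 kb (E16.5 het). Zfp819 had no covered base except 0.84 kb in P3 KO, and Zfp429 had none in any list. Zfp708, which binds a class of retrotransposon in oocytes, had at most 1.31 kb (P3 KO) and was called in 4 lists. Zfp459 was called in 6 lists, with at most 3.84 kb (E13.5 KO), and in neither P3 list. Zfp30 is described above.

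The partners through which KRAB zinc finger proteins direct H3K9me3 were looked at in the same way. All 22 listed genes were found, and 8 (36.4%, against 43.9% of all genes) had no peak in the gene body in any list: Trim28, the corepressor, the heterochromatin protein 1 genes Cbx1, Cbx3 and Cbx5, the H3K9 methyltransferases Suv39h2 and Ehmt2, Dnmt3l, a cofactor of de novo DNA methylation, and Uhrf1, which guides maintenance methylation. In all 8 lists peaks lay in 4 (18.2%, against 19.9%): Atf7ip, a partner of Setdb1, Ehmt1, the HUSH complex gene Pphln1 and Morc3. Both shares were near those of all genes. At least 1 kb more in het was seen in 5, 1, 2 and 1 of the 22, against 3.98%, 8.84%, 3.9% and 5.68% of all genes. More in KO was seen in 5, 2, 2 and 3, against 13.9%, 3.29%, 20.2% and 19.4%. Morc1, the targeted gene, was 1 of the 22 and was counted as higher in het at E16.5, P0 and P3. It was the only such gene at E16.5 (1.62 kb) and at P3 (2.21 kb), and at P0 (3.47 kb) Smarcad1 was the other.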

How the data were processed

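The data were 8 peak lists of H3K9me3 ChIP-seq, 1 per genotype and stage, from a series of 32 samples. Each list gives a chromosome, a start and an end per peak, as deposited by the authors. The lists carry no score, signal or p-value. Per the labels' protocols, chromatin of formaldehyde-fixed germ cells was sonicated and precipitated, and libraries were made with an ultralow-input kit. The submitters' processing notes name bcl2fastq 2.20, cutadapt 1.18, Bowtie2 2.3.4.1, deepTools 3.5.0, HOMER 4.10 and the build mm10, without their roles. The peak settings, the use of the H3 samples as control and the handling of replicates are not given in the sources used here. Peak number and length depend on depth and threshold.

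Coordinates were set to 1-based positions, and autosomal peaks were intersected with gene bodies of the RefSeq table of GRCm38.p6, the same build as mm10, with Python 3.11.15, numpy 2.4.6 and pandas 2.3.3. Starts, strand and promoter sequences came from the RefSeq promoter table, which matched 169 members. Covered length and the rule for members were tested on made-up intervals. The 1 kb difference was tested on a copy of the P0 het list from which peaks had been removed. The members, the gene lists and the rules were chosen with earlier results of these data known. Named members were the top 5 per direction differing by at least 1 kb at both P0 and P3, up to 3 per direction for the embryonic stages, the 5 highest and 5 lowest mean covered shares (ties to the longer gene), and the members of a list of 14. Named clusters were the 5 with most members, the 3 most and least covered and the 2 per direction with the largest P0 difference. Named peaks were the longest per list and the longest unmatched at P0 and P3. Zfp27, Zfp442, Zfp882, Zfp869 and Zfp959 and the members beyond this rule were named after their values were seen. Alternatives were 5 kb flanks, peaks of at least 2 kb, equal numbers of the longest peaks, a 100 kb distance, 50% overlap and leaving out the largest cluster. Weighting members equally was added after seeing the data. Intervals are 95% Wilson intervals.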

Additional observations from a re-analysis of the deposited data

Results flagged for a closer look

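In 7 named members the difference in covered gene body, het minus KO, was at least 1 kb toward het at 1 stage and at least 1 kb toward KO at another. Each value rests on 1 list per genotype, so the difference between stages was not tested. Zfp457 had 7.88 kb (P0) and -1.001 kb (E16.5). Zfp872 had 4.50 kb (P3) and -1.86 kb (E16.5). Zfp607a had 2.27 kb (E13.5) and -4.91 kb (P3). Zfp873, covered over most of its body in every list, had 1.36 kb (P0) and -1.46 kb (P3). Zfp445 had 3.21 kb (E16.5) and -5.34 kb (P0). Zfp809 had 3.15 kb (P0) and -3.53 kb (P3). Zfp708 had 1.26 kb (E13.5) and -1.29 kb (P0).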

How the results depend on the processing

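No paired analysis was possible because each group was 1 list without a replicate number, and for the same reason no replicate could be left out. Without the largest cluster (168 members), every count of members kept within 1.5 times its reported value, and each het-only share kept its side of 50%. The 50% overlap was applied to the unmatched peaks only, and each of their counts kept within 1.5 times its reported value. Within 100 kb (161 members) the het-only share of discordant kilobases in member bodies at P3 turned from 50.4% to 48.8%. With 5 kb flanks, called members were 122 in P0 het and 107 in P0 KO, members with more in het were 41 at P0 and 41 at P3, gains in het were 43 to E16.5 and 54 to P0, losses from P0 to P3 were 43 in het and 37 in KO, and het-only shares were 69.7% at P0 and 58.8% at P3. With peaks of at least 2 kb, called members were 39 in both E13.5 lists, 45 in E16.5 KO, 52 in P3 het and 53 in P3 KO, with 11 higher in het at E13.5 and 3 higher in KO at E16.5. Gains were then 19 (E16.5 to P0) and 22 (P0 to P3) in het and 14 and 22 in KO, and losses 16 in het (E13.5 to E16.5) and 20, 19 and 12 at the 3 steps in KO. Unmatched peaks of that length were 15 het and 19 KO at E13.5, 12 and 4 at E16.5, 12 KO at P0, and 25 het and 18 KO at P3. With the 50191 longest peaks of each list, P3 KO had 52 called members, 5 were higher in KO at E16.5 and 9 at P0, gains were 19 in het and 11 in KO (E16.5 to P0) and 21 in KO (P0 to P3), losses 12 in KO (P0 to P3), and unmatched KO peaks 10 (E16.5), 10 (P0) and 16 (P3). The cause was not tested. Unknown depth limits every count.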
